A study of Mus musculus and Rattus norvegicus with 30 samples.

Results

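Complexes II to V of the mitochondrial respiratory chain were followed through their nuclear-encoded subunit genes. Members were the protein-coding genes whose symbols match those used for succinate dehydrogenase (Sdha to Sdhd), the cytochrome bc1 complex (Uqcr genes and Cyc1), cytochrome c (Cycs), cytochrome c oxidase (Cox4 to Cox8 genes) or ATP synthase (Atp5 genes). The rule used symbols alone, and no measured value entered it. It did not check that each gene encodes a subunit of the complex it was placed in. It gave 51 of 32545 rat and 51 of 54307 mouse gene entries, which is 102 of 86852 in all. The rat entries were 4 of complex II, 8 of complex III, 2 of cytochrome c, 19 of complex IV and 18 of complex V. The mouse entries were 4, 9, 1, 19 and 18 in the same order.

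Poly(A) RNA was measured in neonatal rat ventricular myocytes (NRVM, heart muscle cells isolated from 3-day-old rat pups) and in mouse left ventricle. Fibroblasts had been reduced in the rat cultures by letting them attach first and by bromodeoxyuridine, which acts on dividing cells. The rat groups held 3 libraries each. They were double-knockdown myocytes (DKD, siRNA against ERR alpha and ERR gamma, at 25 nM as typically used) with the pan-ERR agonist 915 (DKD_915) or vehicle (DKD_Veh), and scramble-siRNA myocytes (S) with 915 (S_915) or vehicle (S_Veh); 915 was given at 10 µM for 24 h and the vehicle was DMSO. The mice were labelled wild type, and strain, age and the dose of 332 are not given in the sources used here. Hearts came 6 weeks after transverse aortic constriction (TAC, which loads the left ventricle with pressure) or sham surgery, from mice that received vehicle or intraperitoneal injections of 332, also an ERR agonist, over those weeks. Each heart is whole left ventricle, with all its cell types. There were 5 TAC hearts on 332 (TAC_332), 5 TAC hearts on vehicle (TAC_Veh), 5 sham hearts on 332 (Sham_332) and 3 sham hearts on vehicle (Sham_Veh). The comparisons asked how far the 2 ERR agonists and the loss of ERR alpha and gamma move these genes, and whether 332 moves them in the overloaded heart.

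Complex II oxidises succinate and hands its electrons to ubiquinone. Complex III passes them on to cytochrome c, complex IV uses them to reduce oxygen, and complex V makes ATP from the proton gradient. Heart muscle is dense in these complexes, and several subunits of complex IV have a form specific to heart and skeletal muscle. The ERRs (estrogen-related receptors, of which there are alpha, beta and gamma forms) are orphan nuclear receptors known to bind near many genes of oxidative metabolism.

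Depth was 12013379 to 18315341 counts in the 12 rat libraries and 11375894 to 16599899 estimated counts in the 18 mouse libraries. Esrra, which encodes ERR alpha, stood at 13.98, 21.9 and 16.1 CPM (counts scaled to library size with TMM factors) in DKD_Veh and 199, 178 and 169 CPM in S_Veh. Esrrg, which encodes ERR gamma, stood at 18.7, 18.1 and 17.5 CPM in DKD_Veh and 131, 130.3 and 131 CPM in S_Veh, so both targeted genes were low in every vehicle library labelled as knockdown. The mouse hearts were sequenced as 2 sets by the sample-sheet numbers and lanes in the names of the deposited tables. Replicates 1 to 3 of each group formed the first set and replicates 4 and 5 the second, which held no Sham_Veh heart. Within the first set the Sham_332 hearts were in lane 3 and the hearts of the other groups in lane 4. In that set lane and group therefore cannot be told apart wherever Sham_332 is compared. Members were higher in the second set, with a median log2 difference of 0.26 over the 47 tested members (42 of them positive) and 0.01 over all genes, so the set was a term in the mouse fits. Whether the 3 rat libraries of a group stem from separate cell preparations is not given in the sources used here, so rat p-values may measure technical spread alone. In both tissues, fewer cells of a type and less RNA per cell cannot be told apart.

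The sequence bound by an ERR monomer is an extended half-site with the core AAGGTCA. RefSeq promoters (250 bases before to 50 bases after the start of the gene, build GRCm38.p6) were matched for 37 mouse members. The core, on either strand, was in 5 of 37 promoters of members (13.5%), against 5.38% of all 27025 genes with a promoter. The longer TNAAGGTCA, which contains that core, was in 2 of 37 promoters of members (5.41%), against 1.43% of all 27025 genes with a promoter. These are mouse promoters, whereas the knockdown was in rat myocytes, and no rat promoter was scanned. The bases around the core in those 5 members are shown because ERR alpha and gamma are the receptors knocked down there. The match is in capitals (TGACCTT is the core on the other strand).
Atp5g3: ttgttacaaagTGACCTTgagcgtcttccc
Atp5l: gaggggcagccTGACCTTggaaatggggaa
Atp5e: ctactcaggccTGACCTTcctgctgccggg
Atp5k: cttccggcgcgAAGGTCAcggacaaaatgg
Sdhd: gggttgtagagTGACCTTgagccct
They lie at chr2:73911360-73911389 (minus strand), chr9:44920737-44920766 (minus strand), chr2:174464059-174464088 (minus strand), chr5:108434358-108434387 (minus strand) and chr9:50603800-50603824 (minus strand). The matches of Atp5g3 and Atp5l begin 52 and 13 bases before the start, and those of Atp5e, Atp5k and Sdhd begin 24, 23 and 36 bases after it. The core CCGGAAG, known for ETS factors such as GABP, was in 13 of 37 promoters of members (35.1%), against 9.93% of all 27025 genes with a promoter. GCGCATGC, part of the NRF1 consensus, was in 8 of 37 promoters of members (21.6%), against 3.05% of all 27025 genes with a promoter. AAGATGGC, the YY1 core, was in 3 of 37 promoters of members (8.11%), against 3.19% of all 27025 genes with a promoter. A match describes the letters in this window and is not a bound site.

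In rat myocytes the knockdown lowered nearly all measured subunits, and 915 raised many of them in scramble and in knockdown cells. Complex IV took 0.282% ± 0.024 of the counts in genes in DKD_915, 0.195% ± 0.0064 in DKD_Veh, 0.408% ± 0.0045 in S_915 and 0.294% ± 0.02 in S_Veh (SD, n = 3 each). The 3 libraries of each group did not reach those of any other, except that DKD_915 (0.258 to 0.306%) overlapped S_Veh (0.277 to 0.316%). Complex V took 0.405% ± 0.029 in DKD_915, 0.348% ± 0.0046 in DKD_Veh, 0.709% ± 0.011 in S_915 and 0.602% ± 0.033 in S_Veh, and complex III 0.104% ± 0.0069 in DKD_915, 0.0862% ± 0.0006 in DKD_Veh, 0.181% ± 0.0022 in S_915 and 0.144% ± 0.0069 in S_Veh. In both complexes DKD_915 stayed below S_Veh in every library. Complex II took 0.0486% ± 0.0031 in DKD_915, 0.0459% ± 0.0007 in DKD_Veh, 0.0917% ± 0.0017 in S_915 and 0.0811% ± 0.003 in S_Veh. Cytochrome c took 0.0112% ± 0.0006 in DKD_915, 0.0109% ± 0.0002 in DKD_Veh, 0.0308% ± 0.0019 in S_915 and 0.0246% ± 0.0015 in S_Veh, so for complex II and cytochrome c both knockdown groups lay together and far below both scramble groups.

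**Figure D1:**
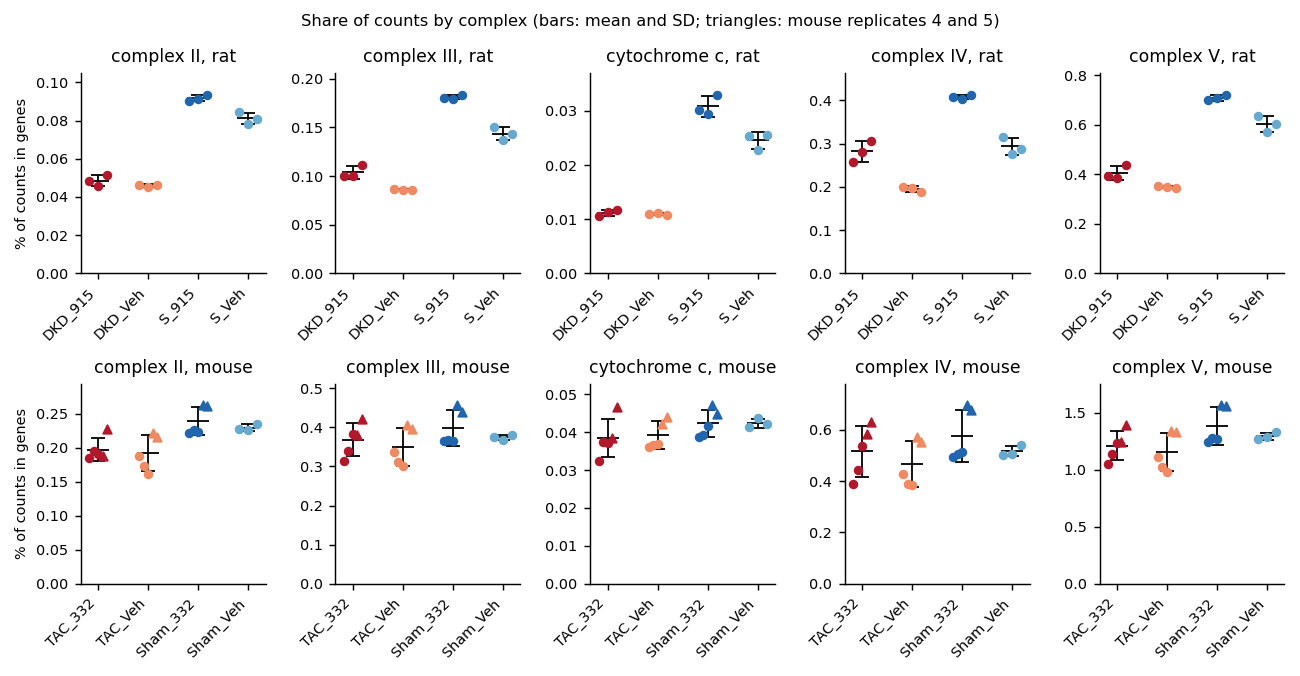
Share of counts taken by the subunits of each complex, in percent, in every library (points), with group means and SDs (bars); rat groups above, mouse groups below, with mouse replicates 4 and 5 as triangles. In rat, complex IV shows the knockdown groups below the scramble groups at the same treatment and 915 above vehicle; in mouse, TAC and sham hearts overlap in part, and in complex IV the second sequencing set (triangles) lies high within each group that has it.

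The knockdown in vehicle cells lowered nearly every subunit that could be tested. Of 51 rat members, 48 passed the filter on low counts; Cox6c1 and Cox7b2 had no count and Cox8c had almost none. Of the 48, 43 fell and none rose in edgeR's quasi-likelihood test (Benjamini-Hochberg adjusted over all genes, threshold 0.05), against 20.4% of all genes called in either direction and 12.7% called lower. All 4 genes of complex II, all 8 of complex III, both cytochrome c entries, 13 of 16 of complex IV and 16 of 18 of complex V fell. The median log2 change was -0.90 in complex II, -0.87 in complex III, -1.30 in cytochrome c, -0.63 in complex IV and -0.69 in complex V, against 0.01 over all genes. The cardiomyocyte marker list was lower too: 5 of 7 markers fell, with summed levels of 8924 to 9343 CPM in DKD_Veh and 13410 to 14800 CPM in S_Veh. The 7 fibroblast markers summed to 10610 to 11570 CPM in DKD_Veh and 10730 to 11490 CPM in S_Veh, and 1 rose. Among other tested markers, 2 of 5 leukocyte and 1 of 5 endothelial ones rose and 1 of 6 smooth muscle and pericyte ones fell. The part of these markers in the result was not tested.

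In complex II, Sdha, the flavoprotein that oxidises succinate, stood at 154, 151 and 162 CPM in DKD_Veh and 354, 325 and 332 CPM in S_Veh. The knockdown libraries held less than any scramble library by a wide gap, and the log2 change was -1.11 ± 0.051 (SE, adjusted p = 1.58e-14) by edgeR. Sdhd, a membrane anchor, stood at 82.7, 86.4 and 76.8 CPM in DKD_Veh and 175, 164 and 178 CPM in S_Veh, again without overlap, and changed by -1.07 ± 0.081 (SE, adjusted p = 2.53e-08). Sdhc, the other anchor, changed by -0.73 ± 0.058 and Sdhb, the iron-sulfur protein, by -0.65 ± 0.052.

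In complex III, Cyc1, the cytochrome c1 that passes electrons to cytochrome c, stood at 164, 154 and 154 CPM in DKD_Veh and 344, 314 and 323 CPM in S_Veh. It fell most of the complex, by edgeR's -1.05 ± 0.057 (SE, adjusted p = 3.56e-13) on the log2 scale. The Rieske protein Uqcrfs1 changed by -0.91 ± 0.055, the core proteins Uqcrc1 and Uqcrc2 by -0.86 ± 0.054 and -0.88 ± 0.053, and the small subunits Uqcrb, Uqcr10 and Uqcrq by -0.90 ± 0.099, -0.67 ± 0.2 and -0.61 ± 0.09. Uqcrh, the hinge protein that contacts cytochrome c1, fell least, with 87.4, 81.97 and 85.2 CPM in DKD_Veh and 114, 95.4 and 119 CPM in S_Veh and a log2 change of -0.37 ± 0.066 (SE, adjusted p = 0.000158).

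Cytochrome c, the soluble carrier between complexes III and IV, had 2 rat entries. The main one (rn6 chromosome 4, 80331227 to 80333326) stood at 95.7, 99.04 and 93.8 CPM in DKD_Veh and 238, 213 and 243 CPM in S_Veh, and the groups were far apart. Its log2 change was -1.27 ± 0.059 (SE, adjusted p = 2.62e-14) by edgeR. The second (chromosome 18, 62476383 to 62476700) stood at 10.1, 9.59 and 10.5 CPM in DKD_Veh and 28.6, 23.95 and 23.9 CPM in S_Veh, with -1.34 ± 0.12 (SE, adjusted p = 2.13e-09), and reads may be split between the pair.

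In complex IV, Cox8b, the heart and skeletal muscle form of subunit VIII, stood at 38.1, 33.7 and 32.7 CPM in DKD_Veh and 102, 75.8 and 81.8 CPM in S_Veh, less in every knockdown library. Its log2 change was -1.31 ± 0.13 (SE, adjusted p = 1.71e-05) by edgeR, the largest of the complex. Cox5a stood at 111, 105 and 105 CPM in DKD_Veh and 233, 208 and 229 CPM in S_Veh and changed by -1.06 ± 0.056 (SE, adjusted p = 2.5e-13). Cox5b, the zinc-binding subunit, changed by -0.95 ± 0.21 and Cox7b by -0.86 ± 0.07. Smaller falls were those of Cox4i1, the main form of the subunit that can bind ATP, at -0.65 ± 0.061, and of Cox7a2l, which joins complexes III and IV into supercomplexes, at -0.45 ± 0.064. Other members of the complex that fell were Cox8a (-0.79 ± 0.11), Cox6a1 (-0.68 ± 0.11), Cox7c (-0.65 ± 0.076), Cox6a2 (-0.61 ± 0.07) and Cox7a2 (-0.61 ± 0.066) and the main Cox6b1 entry (-0.48 ± 0.063). The 3 that were not called were Cox4i2, the form known to rise with low oxygen (0.11 ± 0.42), Cox6b2, the form of testis (-0.30 ± 0.36), and the second Cox6b1 entry (chromosome 2, 211337271 to 211337531; -0.22 ± 0.13). Both are low: Cox4i2 stood at 1.39, 1.11 and 1.25 CPM in DKD_Veh and 2.12, 0.851 and 0.456 CPM in S_Veh, and Cox6b2 at 1.17, 1.05 and 1.19 CPM in DKD_Veh and 1.76, 1.51 and 0.912 CPM in S_Veh.

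In complex V, Atp5a1 and Atp5b, the alpha and beta subunits that form the catalytic head, changed together. Atp5a1 stood at 587, 581 and 579 CPM in DKD_Veh and 1240.5, 1108 and 1219 CPM in S_Veh, and Atp5b at 1304, 1291 and 1269 CPM in DKD_Veh and 2759.7, 2485 and 2619 CPM in S_Veh. Neither gene overlapped between the groups, and the log2 changes by edgeR were -1.03 ± 0.056 (SE, adjusted p = 4.89e-13) and -1.03 ± 0.059 (SE, adjusted p = 1.07e-12). Atp5g1, 1 of 3 genes for the c subunit of the membrane ring, stood at 81.8, 75.8 and 68.3 CPM in DKD_Veh and 179, 146 and 166 CPM in S_Veh and fell most of the complex (-1.12 ± 0.087 SE, adjusted p = 1.2e-07). The c subunit genes Atp5g3 and Atp5g2 changed by -0.92 ± 0.061 and -0.53 ± 0.06, and Atp5c1, the central stalk gamma subunit, by -0.84 ± 0.053. Atp5sl, placed in complex V by its symbol alone and not checked to be a subunit, changed least of the called ones (-0.30 ± 0.082). The 2 Atp5f1 entries, for the b subunit of the outer stalk, were not called. The one at chromosome 2, 208408890 to 208420163, stood at 1.17, 25.00 and 24.2 CPM in DKD_Veh and 7.99, 1.51 and 1.24 CPM in S_Veh, and the one at 208566385 to 208577146 at 11.6, 2.49 and 2.91 CPM in DKD_Veh and 8.76, 4.32 and 5.15 CPM in S_Veh. Their log2 differences were 2.21 ± 1.5 and -0.10 ± 0.56. Libraries of 1 group differed many-fold in these entries, which share a symbol and may split reads, so their values are uncertain.

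With 915, scramble myocytes held more of most subunits. Of 48 tested members 36 rose and none fell, against 42.2% of all genes called and 21.5% called higher. The median log2 change over members was 0.33, against 0.01 over all genes; by complex it was 0.20 in II, 0.33 in III, 0.34 in cytochrome c, 0.40 in IV and 0.40 in V. Cardiomyocyte markers summed to 18290 to 19370 CPM in S_915 and 13410 to 14800 CPM in S_Veh (3 of 7 rose and 1 fell). Fibroblast markers summed to 5940 to 6452 CPM in S_915 and 10730 to 11490 CPM in S_Veh (4 of 7 fell and 1 rose), and 5 of 6 smooth muscle and pericyte markers fell. Most of the fibroblast sum was the collagen gene Col1a1, at 4792, 4517 and 4242 CPM in S_915 and 8483, 9513 and 8275 CPM in S_Veh. Dcn, of the same list, went the other way, with 87.2, 72.3 and 85.3 CPM in S_915 and 58.9, 65.3 and 65.0 CPM in S_Veh. The part of these markers in the result was not tested.

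Cox6a2, the heart and skeletal muscle form of subunit VIa, rose most. It stood at 851, 836 and 878 CPM in S_915 and 524, 428 and 482 CPM in S_Veh, without overlap, and the log2 change was 0.84 ± 0.069 (SE, adjusted p = 1.11e-08) by edgeR. The small subunits Uqcrh, Cox7a2, Cox6b1 (main entry), Atp5g2 and Atp5h changed by 0.60 ± 0.065, 0.55 ± 0.065, 0.53 ± 0.062, 0.51 ± 0.059 and 0.50 ± 0.08, and all 5 rose. So did Uqcrq (0.45 ± 0.088), Cyc1 (0.34 ± 0.055) and Uqcrc1 (0.33 ± 0.053) of complex III, Atp5j2 (0.48 ± 0.064), Atp5d (0.45 ± 0.066), Atp5g1 (0.43 ± 0.084) and Atp5g3 (0.39 ± 0.06) of complex V, and Cox6a1 (0.44 ± 0.1), Cox8a (0.33 ± 0.11) and Cox8b (0.44 ± 0.12) and the second Cox6b1 entry (0.59 ± 0.13) of complex IV. Cytochrome c changed by 0.32 ± 0.057 and 0.36 ± 0.11 in its main and second entries. Uqcrh stood at 168, 163 and 168 CPM in S_915 and 114, 95.4 and 119 CPM in S_Veh, above every vehicle library. Sdhc (0.24 ± 0.057) and Sdhb (0.16 ± 0.051) rose less than Sdhd (0.32 ± 0.078), the complex II member that rose most, with 204, 221 and 221 CPM in S_915 and 175, 164 and 178 CPM in S_Veh.

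Sdha of complex II and Atp5b and Atp5a1 of complex V were not called with 915 in scramble cells. Sdha stood at 346, 344 and 358 CPM in S_915 and 354, 325 and 332 CPM in S_Veh, with overlapping groups and a log2 difference of 0.05 ± 0.049 (SE, adjusted p = 0.432) by edgeR. Atp5b stood at 2774, 2832 and 2873 CPM in S_915 and 2759.7, 2485 and 2619 CPM in S_Veh (0.11 ± 0.058 SE, adjusted p = 0.137), and Atp5a1 at 1276, 1299.5 and 1334 CPM in S_915 and 1240.5, 1108 and 1219 CPM in S_Veh (0.13 ± 0.056 SE, adjusted p = 0.0588). In both ATP synthase genes every S_915 library lay above every S_Veh library, by a small margin. None of these 3 was called, although each had fallen by more than 1 on the log2 scale with the knockdown. Uqcrc2 rose by 0.16 ± 0.052 and Atp5c1 by 0.19 ± 0.052. The other members not called were Uqcr10 (0.32 ± 0.2), Cox4i2 (0.28 ± 0.41), Cox5b (0.09 ± 0.21), Cox6b2 (0.0047 ± 0.35), Atp5i (0.51 ± 0.19), Atp5s (0.33 ± 0.15) and Atp5sl (0.17 ± 0.081) and both Atp5f1 entries.

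In knockdown myocytes 915 raised 27 of the 48 members and lowered none, against 35.7% of all genes called and 18.1% called higher. The median log2 change was 0.09 in complex II, 0.24 in III, -0.02 in cytochrome c, 0.44 in IV and 0.31 in V. In complex IV 12 of 16 rose, in complex V 10 of 18, in complex III 4 of 8 and in complex II 1 of 4, Sdhb (0.14 ± 0.053); neither cytochrome c entry was called. In these cells cardiomyocyte markers summed to 7274 to 9282 CPM in DKD_915 and 8924 to 9343 CPM in DKD_Veh (1 of 7 rose and 2 fell), and fibroblast markers to 7193 to 8983 CPM in DKD_915 and 10610 to 11570 CPM in DKD_Veh (1 of 7 rose and 2 fell). Col1a1 again made most of the fibroblast sum, at 5568, 6672 and 5121 CPM in DKD_915 and 7743, 8927 and 7930 CPM in DKD_Veh. Dcn was higher in every DKD_915 library than in any DKD_Veh library. Smooth muscle and pericyte markers summed to 789 to 938 CPM in DKD_915 and 1512 to 1666 CPM in DKD_Veh (5 of 6 fell and 1 rose), and endothelial markers to 44.5 to 49.8 CPM in DKD_915 and 27.9 to 30.4 CPM in DKD_Veh (4 of 5 tested rose). The part of these markers in the result was not tested. Esrra stood at 12.7, 13.4 and 18.9 CPM in DKD_915 and 13.98, 21.9 and 16.1 CPM in DKD_Veh, and Esrrg at 25.1, 16.1 and 22.2 CPM in DKD_915 and 18.7, 18.1 and 17.5 CPM in DKD_Veh. In S_915 Esrra stood at 227, 228 and 229 CPM and Esrrg at 263, 273 and 302 CPM. Both were above every S_Veh library, and the part of this in comparisons that use S_915 was not tested.

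Cox6a2 again rose most, with 557, 566 and 655 CPM in DKD_915 and 325, 322 and 296 CPM in DKD_Veh, no overlap, and a log2 change of 0.92 ± 0.07 (SE, adjusted p = 6.25e-09) by edgeR. With 915 the knockdown cells held more Cox6a2 than scramble cells on vehicle in every library. Cox8b stood at 51.98, 64.96 and 67.8 CPM in DKD_915 and 38.1, 33.7 and 32.7 CPM in DKD_Veh (0.83 ± 0.13 SE, adjusted p = 0.00046), still below every S_Veh library. In complex III, Uqcrq, a small subunit, changed by 0.60 ± 0.09 and Uqcrh by 0.52 ± 0.066, ahead of Cyc1 (0.23 ± 0.057) and Uqcrc1 (0.19 ± 0.054). Of the paired forms of complex IV, Cox4i1 (0.37 ± 0.061), Cox6a1 (0.43 ± 0.11) and Cox7a2 (0.54 ± 0.067) and both Cox6b1 entries (0.51 ± 0.063 for the main and 0.50 ± 0.13 for the second) rose. In complex V, Atp5e, the epsilon subunit of the central stalk, stood at 146, 166 and 176 CPM in DKD_915 and 112, 96.5 and 94.8 CPM in DKD_Veh and changed by 0.69 ± 0.08 (SE, adjusted p = 3.6e-06). Atp5j2, Atp5g1 and Atp5i, all of the membrane part, changed by 0.66 ± 0.066, 0.66 ± 0.088 and 0.59 ± 0.2.

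Several central subunits were not called. Sdha had 149, 139 and 153 CPM in DKD_915 and 154, 151 and 162 CPM in DKD_Veh, and Cycs (main entry) had 89.8, 98.1 and 102 CPM in DKD_915 and 95.7, 99.04 and 93.8 CPM in DKD_Veh. Uqcrc2 had 125, 114 and 122 CPM in DKD_915 and 128, 121 and 138 CPM in DKD_Veh, and Atp5a1 547, 493 and 581 CPM in DKD_915 and 587, 581 and 579 CPM in DKD_Veh. All 4 overlapped between the groups, with log2 differences of -0.09 ± 0.051, 0.01 ± 0.06, -0.10 ± 0.054 and -0.11 ± 0.056, and none was called. Of complex II, Sdhc (0.10 ± 0.059) and Sdhd (0.08 ± 0.083) were not called. Of complex III, Uqcr10 (0.33 ± 0.21), Uqcrb (0.24 ± 0.1) and Uqcrfs1 (0.06 ± 0.056) were not either, and neither were Cox4i2 (0.89 ± 0.4), Cox5b (0.46 ± 0.21), Cox6b2 (0.61 ± 0.35) and Cox8a (0.30 ± 0.11) of complex IV, Atp5g3 (0.10 ± 0.061) and the second Cycs entry (-0.04 ± 0.12).

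**Figure D2:**
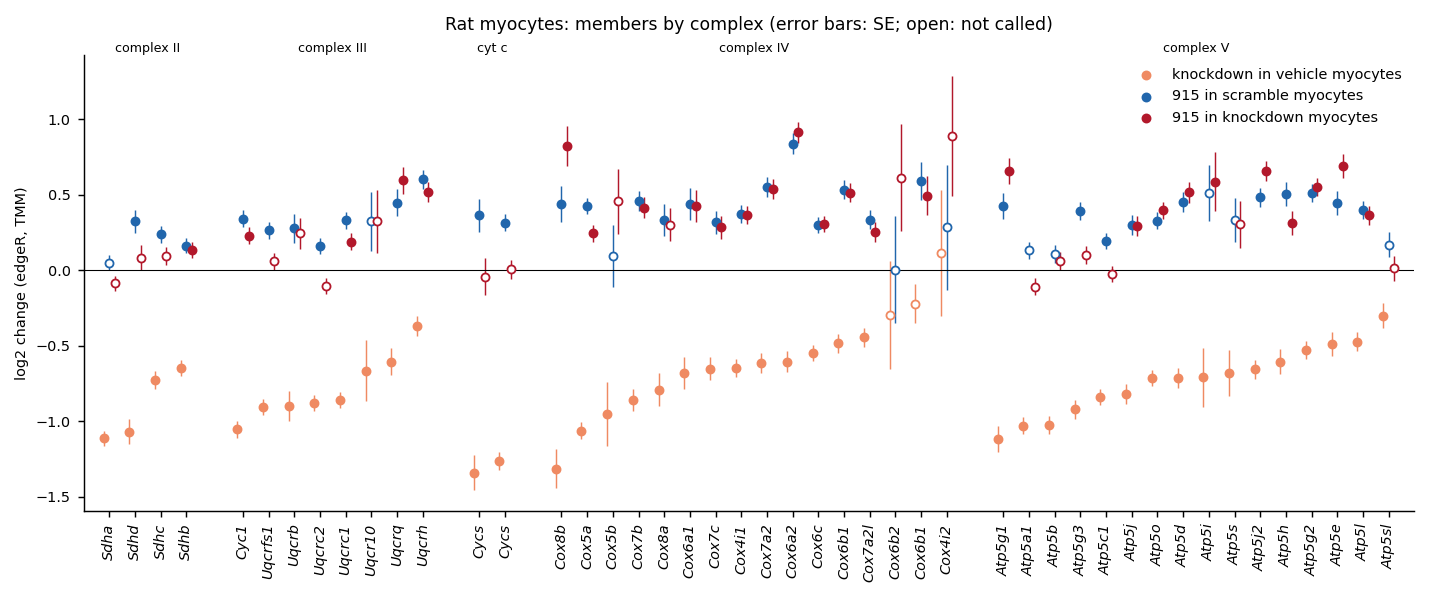
Log2 changes (edgeR, TMM) of the tested rat members by complex, with SEs as bars; filled points were called at an adjusted p of 0.05 and open points were not. The 2 Atp5f1 entries are left out for their scale. The knockdown (orange) lies below 0 for all but Cox4i2, while 915 in scramble (blue) and knockdown (red) cells lies above 0 for most small subunits and near 0 for Sdha, Atp5a1 and Atp5b.

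The difference between the 915 effects, knockdown minus scramble, was called for 2 of 48 members, both negative, against 3.73% of all genes called and 1.99% called negative, so the count is near the background. Uqcrc2 had -0.26 ± 0.075 (SE, adjusted p = 0.0487) and the main Cycs entry -0.31 ± 0.083 (SE, adjusted p = 0.0353) by edgeR. For Cycs the effect of 915 was 0.01 ± 0.06 in knockdown and 0.32 ± 0.057 in scramble cells. For Uqcrc2 it was -0.10 ± 0.054 in knockdown and 0.16 ± 0.052 in scramble cells. Both calls lay near the threshold. Without DKD_915 replicate 3 the count was 7, without S_Veh replicate 2, S_915 replicate 3, DKD_Veh replicate 1 or 3 or DKD_915 replicate 2 it was 0, and without S_Veh replicate 3, S_915 replicate 1 or 2, DKD_Veh replicate 2 or DKD_915 replicate 1 it was 1. The other 46 were not called, which does not show that 915 acted alike on them. Among these the differences were Sdha (-0.14 ± 0.071), Sdhb (-0.03 ± 0.074), Sdhc (-0.14 ± 0.082) and Sdhd (-0.24 ± 0.11) in complex II. In the c subunit genes they were Atp5g1 (0.23 ± 0.12), Atp5g2 (0.04 ± 0.084) and Atp5g3 (-0.29 ± 0.086). In complex IV they were Cox4i1 (-0.01 ± 0.086), Cox6a1 (-0.01 ± 0.15), Cox6a2 (0.08 ± 0.098), Cox7a2 (-0.01 ± 0.093), Cox8a (-0.03 ± 0.15) and Cox8b (0.39 ± 0.18), main Cox6b1 entry (-0.02 ± 0.088) and second Cox6b1 entry (-0.10 ± 0.18), and Cox4i2 (0.60 ± 0.58) and Cox6b2 (0.61 ± 0.5). The second Cycs entry had -0.41 ± 0.17. Across 46 members without the Atp5f1 entries, the 2 effects of 915, which share no library, had a Pearson r of 0.60 and the same sign in 41. The points share the libraries of each comparison. Of all 48 tested members 47 were above 0 in scramble and 41 in knockdown cells, so most signs had to match.

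Under 915 the knockdown lowered 42 of 48 members, against 33.9% of all genes called and 17.7% called lower. The medians were -1.06 in complex II, -0.97 in III, -1.66 in cytochrome c, -0.61 in IV and -0.75 in V, on the log2 scale. Cycs (main entry) stood at 89.8, 98.1 and 102 CPM in DKD_915 and 281, 277 and 306 CPM in S_915, a log2 change of -1.58 ± 0.06 (SE, adjusted p = 2.7e-16) by edgeR. The second Cycs entry changed by -1.75 ± 0.12. In complex II the changes were Sdhd (-1.31 ± 0.081), Sdha (-1.25 ± 0.051), Sdhc (-0.87 ± 0.058) and Sdhb (-0.68 ± 0.052), and in complex III they were led by Cyc1 (-1.17 ± 0.057), Uqcrc2 (-1.14 ± 0.054), Uqcrfs1 (-1.11 ± 0.056) and Uqcrc1 (-1.0001 ± 0.054). In complex IV they were led by Cox5a (-1.25 ± 0.056), Cox8b (-0.93 ± 0.12), Cox7b (-0.90 ± 0.069) and Cox8a (-0.82 ± 0.11), and Cox6a1 (-0.69 ± 0.11), Cox4i1 (-0.66 ± 0.06), Cox7a2 (-0.63 ± 0.065) and Cox6a2 (-0.53 ± 0.069) and Cox6b1 (-0.50 ± 0.062, main entry) followed. In complex V they were led by Atp5a1 (-1.27 ± 0.057), Atp5g3 (-1.21 ± 0.061), Atp5b (-1.07 ± 0.059) and Atp5c1 (-1.05 ± 0.053), with Atp5g1 (-0.89 ± 0.085) and Atp5g2 (-0.49 ± 0.059) smaller. The smallest called change was that of Atp5e (-0.25 ± 0.079 SE, adjusted p = 0.023), with 146, 166 and 176 CPM in DKD_915 and 197, 195 and 188 CPM in S_915. Not called were Cox4i2 (0.72 ± 0.4), Cox5b (-0.59 ± 0.21), the second Cox6b1 entry (-0.32 ± 0.12), Cox6b2 (0.31 ± 0.35) and the Atp5f1 entries (-3.83 ± 1.8 and -1.28 ± 0.61). Cardiomyocyte markers fell in 7 of 7 in this comparison. By list, 4 of 7 fibroblast, 3 of 5 endothelial, 4 of 6 smooth muscle and pericyte and 4 of 5 tested leukocyte markers rose. Of 3 tested skeletal muscle markers 1 fell. The part of these markers in the result was not tested.

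Ratios between genes for alternative forms of a subunit differed without overlap between some rat groups, though 3 libraries against 3 allow no exact permutation p under 0.1. The log2 ratio of Cox6a2 to Cox6a1 counts, the muscle to the general form, was 0.95 ± 0.14 in DKD_915, 0.46 ± 0.022 in DKD_Veh, 0.78 ± 0.044 in S_915 and 0.39 ± 0.13 in S_Veh (SD, n = 3 each). With 915 no library overlapped vehicle in either cell type (exact 2-sided permutation p = 0.1 each, adjusted 0.185). Cox8b to Cox8a was -1.63 ± 0.11 in DKD_915, -2.14 ± 0.11 in DKD_Veh, -1.52 ± 0.1 in S_915 and -1.62 ± 0.058 in S_Veh, and DKD_Veh lay below all others. Among the c subunit genes, which encode the same mature protein, Atp5g2 to Atp5g3 was 0.18 ± 0.13 in DKD_915, -0.27 ± 0.031 in DKD_Veh, -0.55 ± 0.015 in S_915 and -0.67 ± 0.057 in S_Veh, with no overlap between any of the groups. Atp5g1 to Atp5g3 was -0.57 ± 0.14 in DKD_915, -1.13 ± 0.12 in DKD_Veh, -0.90 ± 0.018 in S_915 and -0.93 ± 0.066 in S_Veh, highest in DKD_915. Cox4i2 and Cox6b2 stood far below their partners in every group.

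Per length, in the deposited FPKM, Cox6a2 averaged 1248 ± 117 in DKD_915, 656 ± 34.7 in DKD_Veh, 1792 ± 47.6 in S_915 and 996 ± 93.97 in S_Veh (SD, n = 3 each). Cox6a1 averaged 561 ± 79.3 in DKD_915, 413 ± 19.96 in DKD_Veh, 899.7 ± 11.8 in S_915 and 660.0 ± 77.8 in S_Veh, so the muscle form of subunit VIa was the more abundant one per length in each group. Cox8b averaged 193 ± 26.2 in DKD_915, 108 ± 8.99 in DKD_Veh, 367 ± 28.7 in S_915 and 268 ± 41.1 in S_Veh, in each group below Cox8a, which averaged 383 ± 41.2 in DKD_915, 308 ± 14.9 in DKD_Veh, 676 ± 5.80 in S_915 and 532 ± 85.4 in S_Veh.

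Assembly factors and mitochondrially encoded subunits serve the same complexes. Of 35 tested assembly factors (of 43 listed), 15 fell and none rose with the knockdown in vehicle cells, against 20.4% of all genes called and 12.7% called lower, with a median log2 change of -0.35; Cox10, which makes the heme A precursor, changed by -0.95 ± 0.091 and Coa5 by -0.89 ± 0.058. With 915, 18 rose and none fell in scramble cells, against 42.2% of all genes called and 21.5% called higher, led by Sdhaf3 (0.79 ± 0.2) and Uqcc2 (0.67 ± 0.11), which serve complexes II and III. In knockdown cells 10 rose and 2 fell, against 35.7% of all genes called, so the share of these factors called was near that of all genes. Cmc2 (0.69 ± 0.17) and Sdhaf3 (0.66 ± 0.2) rose most, and Cox18 (-0.29 ± 0.1) and Ttc19 (-0.27 ± 0.088) fell. Under 915 the knockdown lowered 21, led by Fmc1 (-1.17 ± 0.15), a factor of complex V, and Cox10 (-1.08 ± 0.088), and raised 1, Cox19 (0.28 ± 0.081), against 33.9% of all genes called and 17.7% called lower. All 6 mitochondrially encoded subunits of complexes III to V fell with the knockdown in both treatments (medians -0.42 in vehicle and -0.42 under 915), with mt-Cytb, the cytochrome b of complex III, at -0.61 ± 0.069 and -0.63 ± 0.069, and 5 of 6 rose with 915 in scramble and in knockdown cells (medians 0.27 and 0.30).

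In mouse hearts TAC lowered most subunits on vehicle and on 332. Of 51 mouse members 47 passed the filter; Cox8c had no count, and Cox5b-ps, Cox7b2 and a second Atp5o entry had almost none. In vehicle hearts 40 of 47 fell with TAC and none rose, against 26.4% of all genes called and 12.8% called lower. All 4 of complex II, all 9 of complex III, Cycs, 12 of 16 of complex IV and 14 of 17 of complex V fell. The median log2 change was -0.46 in complex II, -0.32 in III, -0.43 in IV and -0.40 in V, and Cycs changed by -0.31 ± 0.085; the median of all genes was -0.01 and that of all members -0.39. The count was 18 without a term for the sequencing set, with a member median of -0.31, and 38 among replicates 1 to 3 alone, with -0.39.

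Complex IV took 0.516% ± 0.1 of the counts in TAC_332, 0.465% ± 0.09 in TAC_Veh, 0.577% ± 0.1 in Sham_332 and 0.516% ± 0.021 in Sham_Veh (SD, n = 5, 5, 5 and 3). Complex V took 1.21% ± 0.13 in TAC_332, 1.16% ± 0.17 in TAC_Veh, 1.38% ± 0.17 in Sham_332 and 1.29% ± 0.031 in Sham_Veh. Complex III took 0.368% ± 0.042 in TAC_332, 0.35% ± 0.048 in TAC_Veh, 0.398% ± 0.046 in Sham_332 and 0.374% ± 0.0069 in Sham_Veh, and complex II 0.197% ± 0.017 in TAC_332, 0.192% ± 0.026 in TAC_Veh, 0.239% ± 0.021 in Sham_332 and 0.229% ± 0.0051 in Sham_Veh. Cycs took 0.0384% ± 0.0051 in TAC_332, 0.0392% ± 0.0037 in TAC_Veh, 0.0423% ± 0.0036 in Sham_332 and 0.0423% ± 0.0012 in Sham_Veh. These means pool the sequencing sets, while Sham_Veh held first-set hearts only and most members were higher in the second set. Differences of the means from Sham_Veh therefore cannot be told apart from the set. Complex IV took 0.503 to 0.540% in Sham_Veh and at most 0.512% in first-set Sham_332 hearts. Second-set Sham_332 hearts held 0.6785 and 0.695%. First-set TAC_332 hearts held 0.387, 0.441 and 0.538%. Mitochondrially encoded genes took 23.5 to 34.8% of the counts of TAC hearts and 28.1 to 36.5% of those of sham hearts, and this share enters the denominator. Of nuclear-encoded counts alone, complex II took 0.246 to 0.315% in TAC_332, 0.248 to 0.299% in TAC_Veh, 0.346 to 0.369% in Sham_332 and 0.349 to 0.365% in Sham_Veh, with every TAC heart below every sham heart. Complex V, at 1.55 to 1.93% in TAC_332, 1.5 to 1.8% in TAC_Veh, 1.95 to 2.2% in Sham_332 and 1.98 to 2.06% in Sham_Veh, was likewise without overlap between TAC and sham hearts. Complex III took 0.461 to 0.585% in TAC_332, 0.461 to 0.546% in TAC_Veh, 0.5687 to 0.641% in Sham_332 and 0.5679 to 0.592% in Sham_Veh of nuclear-encoded counts, complex IV 0.5675 to 0.874% in TAC_332, 0.58 to 0.766% in TAC_Veh, 0.77 to 0.977% in Sham_332 and 0.782 to 0.839% in Sham_Veh, and Cycs 0.0477 to 0.0645% in TAC_332, 0.0544 to 0.0577% in TAC_Veh, 0.0606 to 0.0661% in Sham_332 and 0.0645 to 0.0674% in Sham_Veh. For these the vehicle groups did not overlap, while TAC_332 overlapped Sham_332 when the sets were pooled. Within the sets those 2 groups overlapped only for Cycs in the second. Complex III took 0.461 to 0.538% in TAC_332 and 0.569 to 0.574% in Sham_332 in the first set. In the second it took 0.498 to 0.585% in TAC_332 and 0.611 to 0.641% in Sham_332. Complex IV took 0.5675 to 0.754% in TAC_332 and 0.77 to 0.806% in Sham_332 in the first set. Its second-set values were 0.763 to 0.874% in TAC_332 and 0.9435 to 0.977% in Sham_332.

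Marker sums moved with TAC as well. Cardiomyocyte markers summed to 38230 to 49350 CPM in TAC_Veh and 49100 to 51260 CPM in Sham_Veh (4 of 7 fell). Fibroblast markers summed to 918 to 1546 CPM in TAC_Veh and 461 to 551 CPM in Sham_Veh (6 of 7 rose). The part of either list in the result was not tested.

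Cox7a1, the heart and skeletal muscle form of subunit VIIa, changed most among well-measured members. It stood at 277, 204, 203, 293 and 273 CPM in TAC_Veh and 372, 365 and 400.4 CPM in Sham_Veh, lower in every TAC heart, and the log2 change was -0.73 ± 0.13 (SE, adjusted p = 0.000679) by edgeR. Cox7c and Cox6c, small subunits of the same complex, changed by -0.64 ± 0.12 (SE, adjusted p = 0.00078) and -0.60 ± 0.1 (SE, adjusted p = 0.000234). Cox6b2 changed by -1.63 ± 0.47, but stood under 2 CPM in every heart. In complex V, Atp5e stood at 118, 99.9, 97.4, 138 and 133 CPM in TAC_Veh and 147, 164 and 166 CPM in Sham_Veh. Every TAC heart lay below every sham heart, and the 2 TAC hearts of the second set, given last, lay closer to sham than the others did. All Sham_Veh hearts were of the first set, and the fit put Atp5e higher in the second by 0.37 on the log2 scale. That closeness therefore cannot be told apart from the set. The log2 change was -0.60 ± 0.11 (SE, adjusted p = 0.000538). Atp5k, of the membrane part, changed by -0.56 ± 0.11, Atp5o, of the outer stalk, by -0.53 ± 0.081, and Atp5j by -0.47 ± 0.091. Other paired forms of complex IV that fell were Cox7a2 (-0.50 ± 0.084), Cox4i1 (-0.46 ± 0.085) and Cox6b1 (-0.29 ± 0.075).

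In complex II, Sdha stood at 991, 874, 865, 1038 and 979 CPM in TAC_Veh and 1306, 1323 and 1306 CPM in Sham_Veh, without overlap. Its log2 change was -0.51 ± 0.098 (SE, adjusted p = 0.00075) by edgeR; Sdhc changed by -0.52 ± 0.086, Sdhb by -0.42 ± 0.079 and Sdhd by -0.29 ± 0.077. In complex III, Uqcrh changed by -0.46 ± 0.078, Uqcrb by -0.44 ± 0.088, Uqcr11 by -0.38 ± 0.096 and Uqcrq by -0.34 ± 0.096. Cyc1 changed least of the complex, with 441, 400.4, 380.4, 423 and 407 CPM in TAC_Veh and 497, 482 and 472 CPM in Sham_Veh (-0.24 ± 0.076 SE, adjusted p = 0.0243), whereas it led the fall in complex III of the rat knockdown. The alpha and beta subunits of ATP synthase, Atp5a1 and Atp5b, changed by -0.38 ± 0.085 and -0.39 ± 0.077.

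The 7 members not called with TAC in vehicle hearts were Cox4i2 (-0.36 ± 0.2), Cox6a1 (0.01 ± 0.093), Cox7a2l (-0.03 ± 0.077), Cox8a (-0.06 ± 0.093), Atp5g1 (-0.09 ± 0.09), Atp5g2 (-0.34 ± 0.21) and Atp5mpl (-0.24 ± 0.097). Cox6a1 and Cox8a are the general forms whose muscle partners Cox6a2 (-0.50 ± 0.093) and Cox8b (-0.39 ± 0.1) fell. Cox8a stood at 57.6, 55.2, 58.4, 59.3 and 59.6 CPM in TAC_Veh and 61.2, 53.9 and 59.8 CPM in Sham_Veh, overlapping, and Cox6a1 at 37.01, 28.9, 40.3, 38.3 and 42.4 CPM in TAC_Veh and 33.1, 35.3 and 34.7 CPM in Sham_Veh, also overlapping.

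The agonist 332 changed no member past the threshold. In TAC hearts 0 of 47 were called by edgeR, against 0.427% of all genes, with 8 at an unadjusted p under 0.05 and 0 by DESeq2. The log2 change was above 0 in 43 of 47, with a member median of 0.09 against 0.01 for all genes. The shares of all genes at that unadjusted p and above 0 were not taken, so these counts are no result about the members. By complex the medians were 0.08 in II, 0.05 in III, 0.12 in IV and 0.10 in V, and Cycs stood at -0.05 ± 0.071. The member median was 0.10 among replicates 1 to 3 and 0.11 among replicates 4 and 5. Values above 0 included Cox8b (0.22 ± 0.084), Cox7a2 (0.19 ± 0.07), Cox4i1 (0.15 ± 0.071), Cox6a2 (0.15 ± 0.078) and Cox8a (0.15 ± 0.077) of complex IV, Sdhc (0.09 ± 0.072), Sdhd (0.09 ± 0.065) and Sdhb (0.08 ± 0.066) of complex II and Atp5g2 (0.13 ± 0.18), Atp5g1 (0.11 ± 0.075) and Atp5g3 (0.10 ± 0.074) of complex V. Further values were Cox6b1 (0.12 ± 0.063), Cox4i2 (0.09 ± 0.17), Cox6b2 (0.07 ± 0.44) and Cox6a1 (0.04 ± 0.076) for paired forms and -0.04 ± 0.082 for Sdha. The largest differences were those of Atp5e at 0.25 ± 0.093 (SE, adjusted p = 0.251) and Cox7a1 at 0.23 ± 0.11 (SE, adjusted p = 0.404) by edgeR. Atp5e stood at 98.2, 124, 156, 142 and 173 CPM in TAC_332 and 118, 99.9, 97.4, 138 and 133 CPM in TAC_Veh, and Cox7a1 at 237, 265, 314, 248 and 401 CPM in TAC_332 and 277, 204, 203, 293 and 273 CPM in TAC_Veh, and both overlapped. Sdha stood at 949, 1016, 779.9, 777 and 1086 CPM in TAC_332 and 991, 874, 865, 1038 and 979 CPM in TAC_Veh, again overlapping.

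In sham hearts 332 gave 0 of 47 called by edgeR, against 0.00712% of all genes, with 0 at an unadjusted p under 0.05 and 0 by DESeq2. The member median was -0.01, and single members ranged between Cox7c at -0.11 ± 0.12 and Atp5g2 at 0.16 ± 0.22. Complex II had Sdha (-0.0035 ± 0.099), Sdhb (-0.04 ± 0.079), Sdhc (-0.01 ± 0.087) and Sdhd (0.002 ± 0.078), and Cycs had -0.08 ± 0.085. Of the paired forms, Cox4i1 (0.0036 ± 0.085), Cox4i2 (-0.05 ± 0.2), Cox6a1 (0.11 ± 0.094) and Cox6a2 (0.02 ± 0.094), Cox6b1 (-0.04 ± 0.075), Cox6b2 (-0.04 ± 0.41), Cox7a1 (0.01 ± 0.14) and Cox7a2 (-0.05 ± 0.084), Cox8a (-0.03 ± 0.094) and Cox8b (0.02 ± 0.1) and Atp5g1 (0.12 ± 0.091) and Atp5g3 (0.03 ± 0.089) stayed within those bounds. The difference of the 332 effects, TAC minus sham, was called for 0 members by edgeR, against 0.0641% of all genes, with 2 at an unadjusted p under 0.05 and 0 by DESeq2. For that unadjusted p the share of all genes was not taken. The differences were Cox7a2 (0.24 ± 0.11), Cox7a1 (0.23 ± 0.18), Cox8b (0.20 ± 0.13) and Cox8a (0.17 ± 0.12), Cox6b1 (0.16 ± 0.098), Cox4i1 (0.15 ± 0.11), Cox4i2 (0.14 ± 0.26) and Cox6a2 (0.13 ± 0.12) and Cox6b2 (0.11 ± 0.61) and Cox6a1 (-0.07 ± 0.12) in complex IV. They were Sdha (-0.04 ± 0.13), Sdhb (0.12 ± 0.1), Sdhc (0.10 ± 0.11) and Sdhd (0.09 ± 0.1) in complex II, 0.02 ± 0.11 for Cycs, and Atp5g1 (-0.01 ± 0.12), Atp5g2 (-0.03 ± 0.28) and Atp5g3 (0.08 ± 0.12) for the c subunit genes. Cardiomyocyte markers summed to 38460 to 56550 CPM in TAC_332 and 38230 to 49350 CPM in TAC_Veh. Red cell markers (4 globin genes) summed to 1057 to 2645 CPM in TAC_332 and 524 to 809.6 CPM in TAC_Veh, without overlap and with a median log2 difference of 1.17, and to 811 to 2073 CPM in Sham_332 and 584 to 976 CPM in Sham_Veh, with overlap. Skeletal muscle markers, all low, summed to 1.31 to 8.97 CPM in Sham_332 and 0.94 to 1.56 CPM in Sham_Veh, with overlap. No single marker of any list was called with 332 by edgeR, and the part of the markers in the member values was not tested.

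In hearts on 332, TAC lowered 34 of 47 members and raised none, against 23.8% of all genes called and 12.1% called lower. The member median was -0.30, with -0.36 in complex II, -0.24 in III, -0.30 in IV and -0.34 in V. Sdha stood at 949, 1016, 779.9, 777 and 1086 CPM in TAC_332 and 1261, 1287, 1357, 1425 and 1394 CPM in Sham_332, every TAC heart lower, and changed by -0.54 ± 0.082 (SE, adjusted p = 9.49e-05) by edgeR. Of complex II, Sdhc (-0.42 ± 0.072), Sdhb (-0.29 ± 0.066) and Sdhd (-0.20 ± 0.065) fell as well. Complex III was led by Uqcrb (-0.35 ± 0.074), Uqcrh (-0.31 ± 0.066), Uqcrc1 (-0.30 ± 0.07) and Uqcrc2 (-0.27 ± 0.062). Complex IV was led by Cox6b2 (-1.52 ± 0.39), Cox7a1 (-0.51 ± 0.11), Cox7b (-0.46 ± 0.081) and Cox6c (-0.39 ± 0.086), with Cox6a2 (-0.37 ± 0.078), Cox4i1 (-0.32 ± 0.071) and Cox7a2 (-0.26 ± 0.07) among the others that fell. Complex V was led by Atp5o (-0.40 ± 0.068), Atp5j (-0.40 ± 0.077), Atp5pb (-0.40 ± 0.07) and Atp5c1 (-0.39 ± 0.07), with Atp5g3 at -0.37 ± 0.074, and Cycs changed by -0.29 ± 0.071. Fibroblast markers summed to 675 to 1935 CPM in TAC_332 and 471 to 527 CPM in Sham_332, and cardiomyocyte markers to 38460 to 56550 CPM in TAC_332 and 50890 to 65660 CPM in Sham_332. Skeletal muscle markers summed to 0.686 to 1.62 CPM in TAC_332 and 1.31 to 8.97 CPM in Sham_332 (2 of 2 tested fell). The part of these lists was not tested. The count was 16 without a term for the sequencing set, 23 among replicates 1 to 3, and 0 among replicates 4 and 5, where 2 hearts met 2, 52 of 13869 genes were called and the member median was -0.29.

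Members lowered by TAC in vehicle hearts but not called in 332 hearts were Uqcr10 (-0.09 ± 0.082), Uqcrq (-0.20 ± 0.08), Cox6b1 (-0.13 ± 0.063), Cox8b (-0.19 ± 0.084), Atp5j2 (-0.18 ± 0.078) and Atp5l (-0.18 ± 0.071). For none of them was the difference of the 332 effects called. Cox6b1 stood at 356, 396, 450.2, 525 and 528 CPM in TAC_332 and 442, 422, 463, 606 and 539.7 CPM in Sham_332, and Cox8b at 144, 183, 222, 246 and 276 CPM in TAC_332 and 197, 197, 209, 307 and 318 CPM in Sham_332; both overlapped. The 7 members that TAC left uncalled in vehicle hearts were not called in 332 hearts either, at Cox4i2 (-0.22 ± 0.16), Cox6a1 (-0.06 ± 0.077), Cox7a2l (0.02 ± 0.064) and Cox8a (0.12 ± 0.078) in complex IV and Atp5g1 (-0.10 ± 0.075), Atp5g2 (-0.37 ± 0.18) and Atp5mpl (-0.10 ± 0.081) in complex V.

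**Figure D3:**
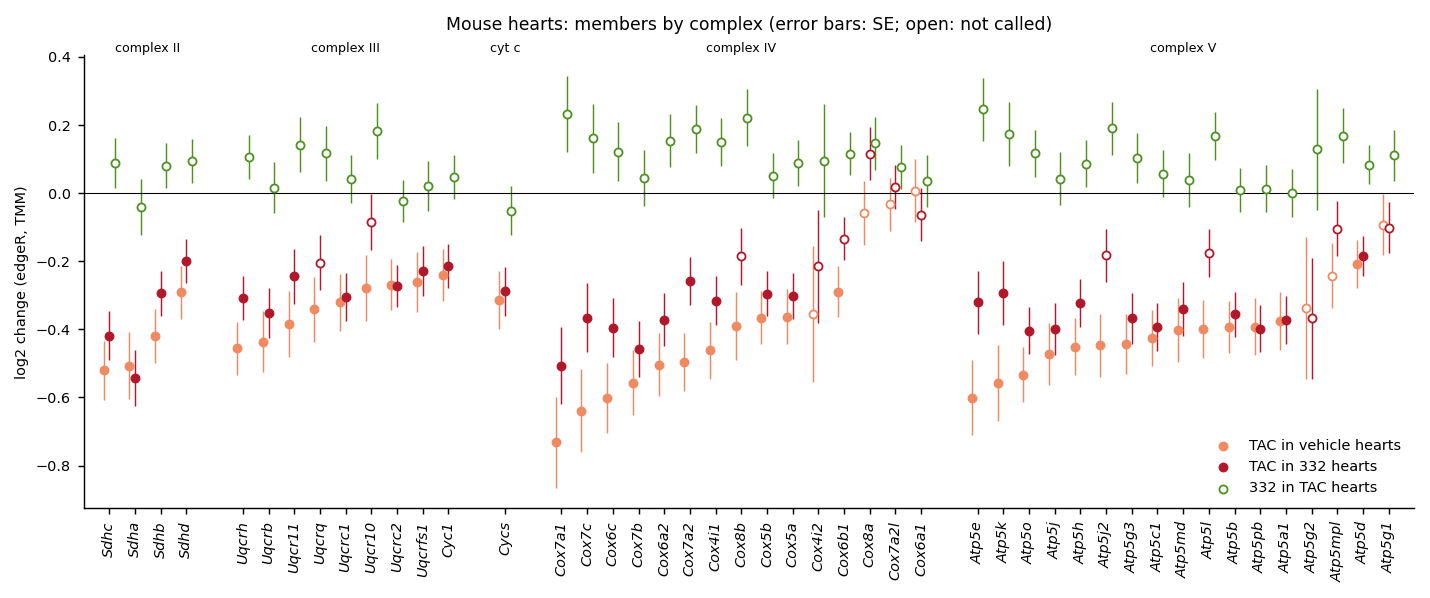
Log2 changes (edgeR, TMM, with a term for the sequencing set) of the tested mouse members by complex, with SEs as bars; filled points were called and open points were not. Cox6b2 is left out for its scale and low counts. TAC lies below 0 in vehicle (orange) hearts for all but Cox6a1 and in 332 (red) hearts for all but Cox7a2l and Cox8a, and 332 in TAC hearts (green) lies between -0.05 and 0.25 with no call.

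In mouse hearts the ratios of several pairs of forms stood apart between TAC and sham within a sequencing set, and none of 24 tests over both sets passed adjustment. Ranges within a set were taken after the values had been seen, and with 3 hearts against 3 or 2 against 2 they allow no exact p under 0.1. In the first set the Sham_332 hearts were also in another lane than the TAC_332 hearts. The log2 ratio of Cox6a2 to Cox6a1 counts was 4.02 ± 0.2 in TAC_Veh (SD, n = 5) and 4.50 ± 0.032 in Sham_Veh (SD, n = 3), with no overlap (exact 2-sided permutation p = 0.0357, adjusted 0.214). It was 4.14 ± 0.11 in TAC_332 and 4.44 ± 0.14 in Sham_332 (SD, n = 5 each; exact permutation p = 0.0159, adjusted 0.19), with overlap over both sets but none within either: 4.06 to 4.22 in TAC_332 and 4.23 to 4.46 in Sham_332 in the first set, and 4.00 to 4.28 in TAC_332 and 4.51 to 4.59 in Sham_332 in the second. Atp5g1 to Atp5g3 was -0.25 ± 0.18 in TAC_Veh and -0.54 ± 0.042 in Sham_Veh, without overlap (exact permutation p = 0.0357, adjusted 0.214). It was -0.23 ± 0.059 in TAC_332 and -0.50 ± 0.077 in Sham_332, without overlap (exact permutation p = 0.00794, the smallest that 5 against 5 can give, adjusted 0.19). Cox7a1 to Cox7a2 and Cox8b to Cox8a overlapped between TAC and sham under both treatments when the sets were pooled, with differences of -0.18 and -0.16 in vehicle hearts and -0.26 and -0.30 in 332 hearts. Within the sets Cox8b to Cox8a did not overlap: it was 1.33 to 1.58 in TAC_Veh and 1.63 to 1.90 in Sham_Veh in the first set, 1.54 to 1.62 in TAC_332 and 1.72 to 1.92 in Sham_332 in the first set, and 1.70 to 2.08 in TAC_332 and 2.23 to 2.46 in Sham_332 in the second. Cox7a1 to Cox7a2 was 0.71 to 0.75 in TAC_332 and 0.83 to 1.10 in Sham_332 in the first set and 0.57 to 1.03 in TAC_332 and 1.16 to 1.17 in Sham_332 in the second, without overlap in either. In vehicle hearts of the first set it was 0.59 to 0.84 in TAC_Veh and 0.81 to 0.96 in Sham_Veh, with overlap. Atp5g1 to Atp5g3 was without overlap between TAC and sham in each set and treatment that held both. In mouse ventricle the muscle form of subunit VIa was far above the general one, at 786 ± 33.98 TPM for Cox6a2 and 33.5 ± 0.332 TPM for Cox6a1 in Sham_Veh (SD, n = 3), and Cox8b stood at 791 ± 81.3 and Cox8a at 42.2 ± 1.78 TPM.

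**Figure D4:**
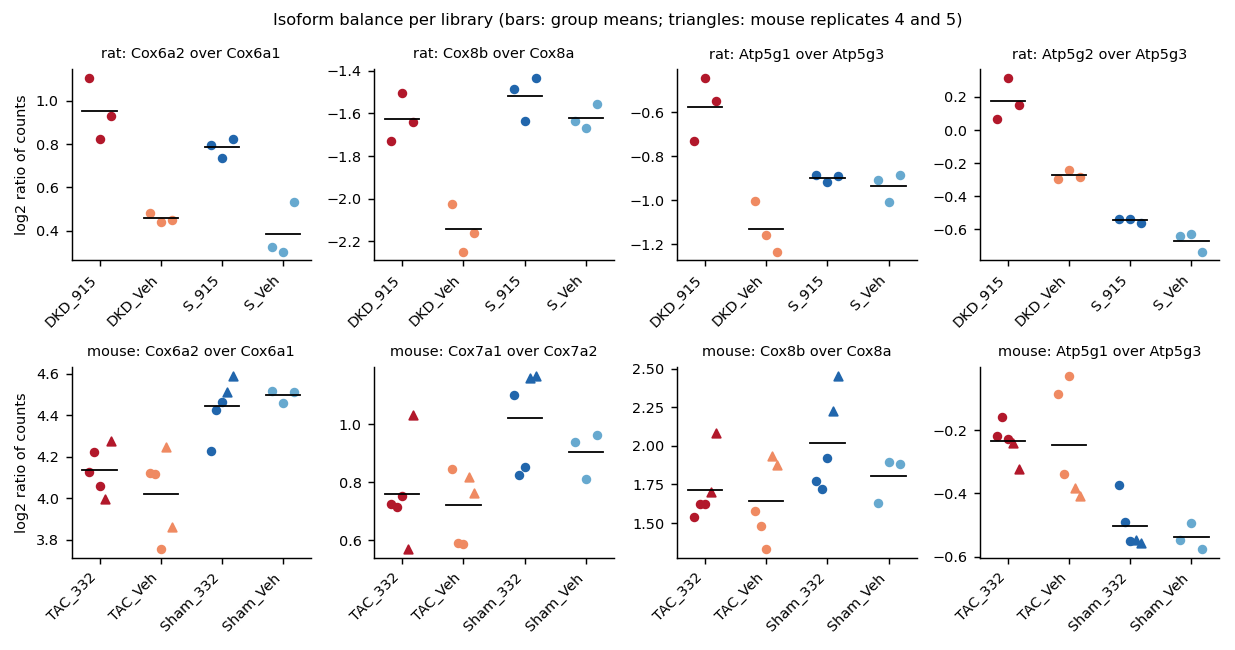
Log2 ratio of counts between genes for alternative forms of a subunit in every library (points), with group means as bars; rat above, mouse below, mouse replicates 4 and 5 as triangles. In rat, the 3 libraries of DKD_915 lie above those of DKD_Veh in all 4 pairs; in mouse, Cox6a2 over Cox6a1 of TAC_Veh lies below Sham_Veh and Atp5g1 over Atp5g3 of TAC_Veh above it.

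Assembly factors were called in both directions in mouse, at about the share of all genes. Of 41 tested, 7 fell and 3 rose with TAC in vehicle hearts (median -0.08), against 26.4% of all genes called, and 7 fell and 3 rose in 332 hearts (median -0.07), against 23.8% of all genes called. Cox19, a copper-handling factor of complex IV, rose most, by 0.78 ± 0.1 in vehicle and 0.75 ± 0.082 in 332 hearts. Coa5 rose in vehicle hearts (0.33 ± 0.073) and Uqcc3 in 332 hearts (0.41 ± 0.11). Cox16 changed by -0.65 ± 0.16 in vehicle and -0.42 ± 0.13 in 332 hearts, and Smim20, which stabilises the nascent oxidase, by -0.48 ± 0.096 in vehicle and -0.27 ± 0.08 in 332 hearts. Of 6 mitochondrially encoded subunits of complexes III to V, 1 fell in vehicle hearts, mt-Cytb (-0.29 ± 0.1), and 3 fell in 332 hearts: mt-Atp6 (-0.36 ± 0.12), mt-Cytb (-0.35 ± 0.085) and mt-Co1 (-0.29 ± 0.08). None of the assembly factors or mitochondrially encoded genes was called with 332 in TAC or sham hearts by edgeR.

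Across species, 39 members had the same symbol and were tested once in each table. TAC in vehicle mouse hearts and the knockdown in vehicle rat myocytes had the same sign in 37 of the 39, with a Pearson r of -0.29 between the log2 changes and of -0.12 over 38 without the low-count Cox6b2. Among these 39, the knockdown order was led by Cox8b, Atp5g1, Sdha and Sdhd, and the TAC order, after Cox6b2, by Cox7c, Cox6c and Atp5e. The changes with 332 in TAC hearts and with 915 in scramble myocytes had the same sign in 36 of 39 and a Pearson r of 0.57, although no change with 332 passed its test. Most tested members had 1 sign in each comparison: 46 of 47 were below 0 with TAC and 46 of 48 with the knockdown. With 332 in TAC hearts 43 of 47 were above 0, and with 915 in scramble myocytes 47 of 48. The counts of shared signs follow largely from this and show no further likeness. Points of 1 comparison share their libraries and the tissues differ, so these values are descriptions only.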

How the data were processed

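The rat values were whole-number counts per gene in a table the authors deposited, with FPKM beside them. Per the submitters' processing notes, rat reads went through HISAT2 2.0.5, featureCounts 1.5.0-p3, StringTie 1.3.3b and DESeq2 1.20.0 on rn6, and mouse reads through fastp, Salmon and DESeq2; the mouse build is not given in the sources used here. The mouse values were estimated counts and TPM per transcript that the authors deposited. Counts of all 140790 transcripts were summed to genes and rounded (5.61% of summed values were not whole within 0.001). A mouse gene was protein-coding if 1 of its transcripts was. Reads on short processed transcripts can raise the TPM of a gene, so TPM was used only for subunit forms.

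Genes passed filterByExpr at a minimum count of 10 (15181 rat and 14047 mouse genes). Effects were fitted with edgeR 4.0.16 (TMM, robust quasi-likelihood F-test, R 4.3.3), 4 groups per species, with a term for the sequencing set in mouse, and adjusted by Benjamini-Hochberg over all genes at 0.05. CPM used TMM-scaled library sizes. The libraries were unstranded in rat, so overlapping antisense genes cannot be told apart.

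Ratios of subunit forms were log2 ratios of counts plus 0.5, for genes with a mean of at least 10 counts, compared by an exact 2-sided permutation test over libraries (scipy 1.17.1) and adjusted over all pairs and comparisons of a species; Cox7a1 (rat) and Cox6b2 (mouse) pairs were not analysed here.

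Members and lists were chosen with earlier results of these data known. Genes were named by a rule: up to 4 called members per complex and comparison with the largest change, all members of form pairs, called members against their complex, and uncalled members where 5 or fewer were left. A few other members, such as Atp5a1 and Uqcrc2, were named after their values were seen. Alternatives tried were RLE size factors, no filter, a stricter filter of 50, the Wald test of DESeq2 1.42.0, a replicate block, each library left out, no set term and replicates 1 to 3. Protein-coding transcripts alone, removal of mitochondrially encoded genes, replicates 4 and 5 alone and ratios and shares within each sequencing set were added once the values had been seen. The main fit of each comparison was also run on simulated counts. These held no sequencing-set effect, so the set term was not checked by them, and the outcome is not given here.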

Additional observations from a re-analysis of the deposited data

Results flagged for a closer look

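The contrast of the 915 effects in knockdown and scramble myocytes was called for 2 of 48 members in edgeR's quasi-likelihood fit, against 3.73% of all genes, so the count is near the background and is no result about the members as a group. Uqcrc2, a core protein of complex III, had a difference of -0.26 ± 0.075 (SE, adjusted p = 0.0487), and the main Cycs entry -0.31 ± 0.083 (SE, adjusted p = 0.0353). The effect of 915 on Uqcrc2 was -0.10 ± 0.054 in knockdown and 0.16 ± 0.052 in scramble cells, and on Cycs 0.01 ± 0.06 in knockdown and 0.32 ± 0.057 in scramble cells. The calls depended on single libraries, as given above. The part of reads shared between the 2 Cycs entries was not tested. In the mouse groups of 5 hearts, 0 of 36 sets of values (shares by complex and ratios of subunit forms) held a heart far enough from the others to stand out by Dixon's criterion. Each group mixed both sequencing sets, so a heart apart from its own set could be missed. Among first-set TAC_332 hearts, replicate 3 held 28.6% mitochondrially encoded counts and replicates 1 and 2 held 31.8 and 33.4%. The second-set replicates 4 and 5 held 23.5 and 27.99%. Sham_Veh was not examined in this way.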

How the results depend on the processing

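The counts of members called were within 1.5 times of the reported ones under RLE size factors, no filter, the stricter filter, DESeq2, the replicate block, protein-coding transcripts alone and removal of mitochondrially encoded genes, except for the difference of the 915 effects, where 2 members became 1 with RLE size factors, 4 without a filter, 4 with DESeq2 and 1 without mitochondrially encoded genes. Leaving out 1 library gave 41 to 43 for the knockdown in vehicle, 32 to 39 and 25 to 30 for 915 in scramble and knockdown cells, 39 to 44 for the knockdown under 915, 0 to 7 for the difference of the 915 effects, 35 to 41 for TAC in vehicle hearts, 28 to 40 for TAC in 332 hearts, and 0 in each fit for 332 in TAC, 332 in sham and the difference of the 332 effects. Without a term for the sequencing set TAC lowered 18 members in vehicle and 16 in 332 hearts, and with replicates 4 and 5 alone 0 in 332 hearts; the last fit has 2 hearts a group. Replicate numbers did not pair the rat libraries, where same-numbered ones had correlations of deviations between -0.053 and 0.04. In mouse the numbers follow the sequencing set. Same-numbered mouse libraries had correlations between -0.081 and 0.334, and differently numbered ones between -0.466 and 0.47. With the replicate block the counts were 41, 36, 25, 41 and 2 in rat for the same comparisons, and in mouse 38 for TAC in vehicle hearts, 34 for TAC in 332 hearts and 0 for the rest. Of the values for named members under alternatives, 58 lost a call, 12 gained one and 1859 did neither; none turned round. No ratio of subunit forms gained a call under another pseudocount, length-scaled values or replicates 1 to 3. In rat and in mouse replicates 1 to 3 none could, because 3 libraries against 3 allow no exact p under 0.1. Shares of counts moved with the denominator in 43 of 48 cases. Atp5f1, Cycs and Cox6b1 in rat are limited by shared reads, and Cox4i2 and Cox6b2 by low counts.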
